A study of Homo sapiens with 2 samples.

Results

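The 51 genes described here are the WNT ligands and the genes that receive, restrain and relay their signal, taken from a list of gene symbols. They comprise 17 WNT ligands, 12 receptors and co-receptors, 5 genes of receptor turnover, 9 secreted inhibitors and 8 intracellular effectors, among the 57736 genes of the table. RNA-Seq was performed in A1847, a human ovarian cancer cell line, with 1 library from parental control cells that are CARM1 wild type and 1 library from CARM1 knockout (CARM1 KO) cells. CARM1 is an arginine methyltransferase, and it was targeted by CRISPR with a lentiviral guide RNA. The knockout line is a single clone, so that loss of CARM1 and other features of that clone cannot be told apart. No further treatment is given for either group.

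WNT proteins are secreted, lipid-modified ligands that bind Frizzled receptors. Together with the co-receptors LRP5 and LRP6, Frizzled receptors block the destruction complex of APC, AXIN and glycogen synthase kinase, so that β-catenin accumulates and activates genes with TCF/LEF factors. Some ligands, such as WNT5A and WNT11, are best known for signalling without β-catenin, in cell polarity and migration. RNF43 and ZNRF3 remove Frizzled receptors from the cell surface, and R-spondins acting through LGR4, LGR5 and LGR6 prevent this. DKK proteins act mainly on LRP5 and LRP6, whereas SFRP proteins and WIF1 bind the ligands themselves.

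The deposited values are estimated read counts per gene, and they sum to 30741953 in the parental library and 32300391 in the CARM1 KO library. CARM1 had 975 parental and 380 CARM1 KO reads, which is 2.63-fold lower in the knockout (95% interval 2.33 to 2.97). This is under the fold threshold given below, so CARM1 itself was not called. Read counts do not show protein, which the paper examined by immunoblot. Folds are given after TMM scaling, and their 95% intervals are exact binomial ones for the error of counting reads alone. A gene is said to be called, or to have risen or fallen, when it passed edgeR's exact test at an FDR under 0.05 with a fold change above 3. As there is 1 library per group, the biological coefficient of variation of the test was assumed to be 0.12 and no difference has a replicate check. The calls thus compare these libraries rather than the conditions.

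The labelled cell type was compared with fixed marker lists. Of 10 epithelial and ovarian tumour markers, 6 were higher and 1, KRT19 with 45 and 0 reads, was lower in CARM1 KO cells. Among all genes tested, 8.33% were higher and 7.44% were lower. The summed length-adjusted level of the 10 markers was 346.7 in parental and 1084 in CARM1 KO cells. These levels are RPKM, reads per kilobase of merged exons and per 1000000 TMM-scaled reads. Most of the sum came from KRT18, at 221.3 and 523 and not called, KRT8, at 82.1 and 320.7, and KRT7, at 35.5 and 209. MUC16 had 0 parental and 1 CARM1 KO reads, and WT1 had 8 reads and 1 read. Of 4 fibroblast markers 3 were lower and 1 was higher in CARM1 KO cells, and their summed level went from 49.4 to 1.89, most of it PDGFRA, with 14326 parental and 2 CARM1 KO reads. DCN, a fibroblast matrix gene, had 24 and 0 reads. The 4 leukocyte markers summed to 5.95 in parental and 23.8 in CARM1 KO cells, almost all of it from CD68, while CD3E and MS4A1 had 0 reads in both. The 3 endothelial markers that were matched summed to 0.0537 and 0.0555, and CDH5 had 0 reads in both. In bulk RNA, fewer cells of a type and less RNA per cell cannot be told apart. Whether these marker differences take part in the results below was not tested.

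Of the 51 genes, 46 had at least 1 read in either library. In CARM1 KO cells 7 of these 46 rose, which is 15.2%, compared with 8.33% of all genes tested. A further 8 fell, which is 17.4%, compared with 7.44% of all genes tested. Of the 40 genes with a total of at least 10 reads, 17.5% rose and 20% fell, against 11.8% and 10.4% of all genes with as many reads. The shares in both directions were therefore above those of the table as a whole, and the median log2 fold change of the 40 genes was -0.16, compared with -0.02 for all genes. The 25 genes that had at least 10 reads and were not called had log2 fold changes between -1.36 for LRP5 and 1.52 for FZD6. WNT1, WNT7A, FZD10, DKK4 and SFRP2 had 0 reads in both libraries, which allows up to 3 reads in each. WNT3A, WNT4, WNT6, WNT8B, WNT16 and LGR6 had between 1 and 9 reads in all and were not called. With a coefficient of variation of 0.4 in place of 0.12, 0 of the members rose, compared with 1.44% of all genes, and 6 fell, compared with 3.01% of all genes.

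**Figure D1:**
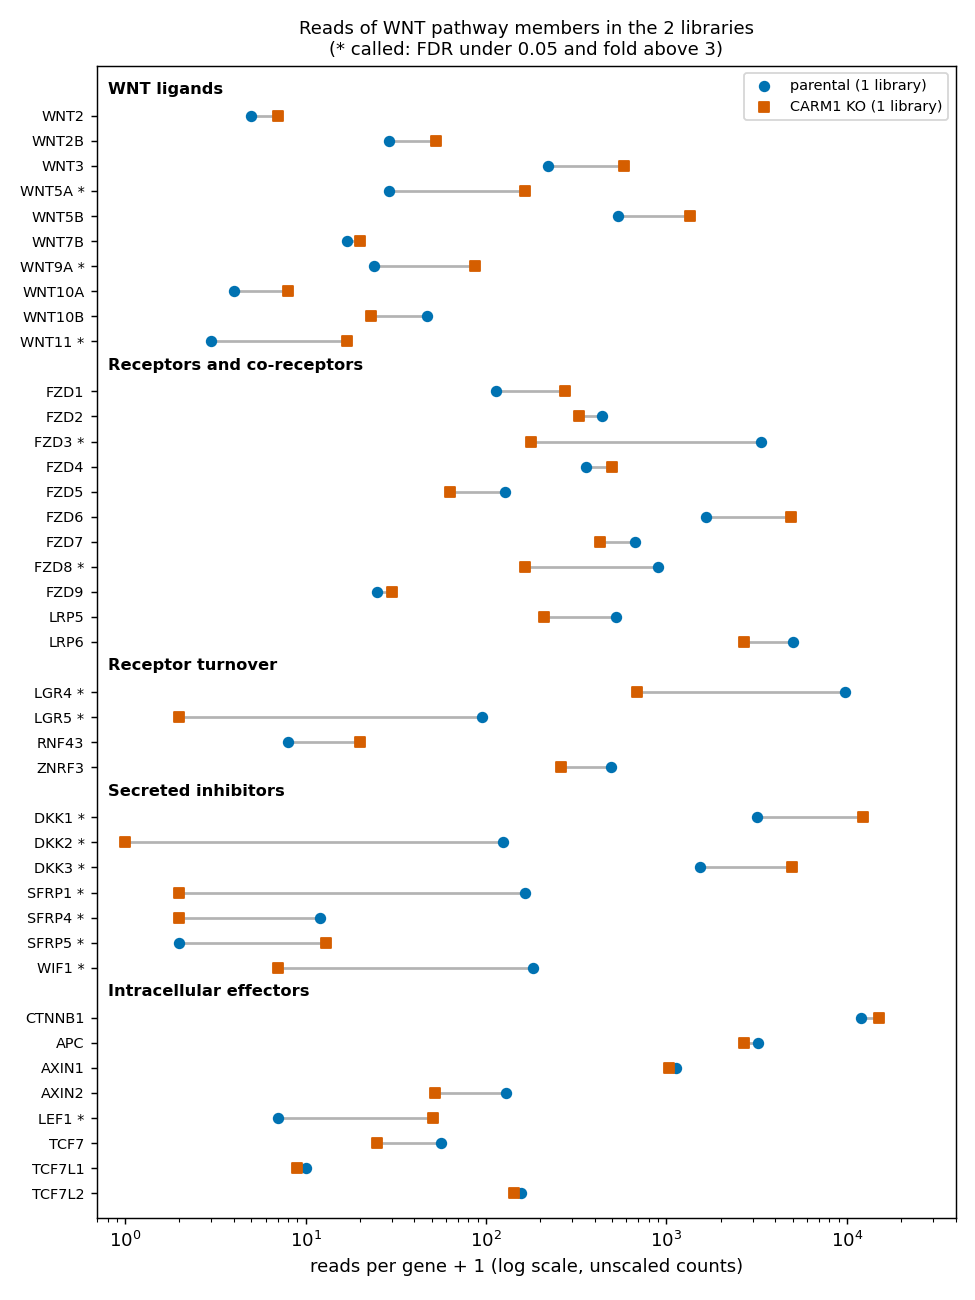
Reads of the 40 members with at least 10 reads, as reads + 1 on a log axis, in the parental library (circles) and the CARM1 KO library (squares), grouped by role, with called genes starred. LGR4 went from 9802 to 686 reads, and DKK2, SFRP1, LGR5 and WIF1 were each at 6 reads or fewer in CARM1 KO cells.

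Among the 15 ligands with at least 1 read, 3 genes rose and 0 fell in CARM1 KO cells, where 8.33% of all genes tested rose and 7.44% fell. None of these 3 was called at a coefficient of variation of 0.4. WNT5A, the prototype of β-catenin-independent ligands, had 28 parental and 164 CARM1 KO reads. Its level rose 5.72-fold (95% interval 3.82 to 8.87). WNT9A had 23 parental and 86 CARM1 KO reads, a 3.65-fold rise (95% interval 2.28 to 6.06). WNT11 had 2 and 16 reads, a ratio of 7.81 with a wide interval from 1.84 to 70.0. The intervals of WNT9A and WNT11 extended below 3-fold. The counts were thus low for each ligand that rose.

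The ligands with the most reads did not pass the fold threshold. WNT5B, a relative of WNT5A, had 536 parental and 1358 CARM1 KO reads, a ratio of 2.47 (95% interval 2.24 to 2.74). WNT3, which signals through β-catenin, had 221 and 584 reads, a ratio of 2.58 (95% interval 2.21 to 3.03). Per length, WNT5B made up 61.9% of the summed ligand level in parental and 63.8% in CARM1 KO cells, and WNT3 made up 20.1% and 21.6%. The same 2 ligands therefore led in both libraries, while the summed level of all ligands was 6.55 in parental and 15.7 in CARM1 KO cells. Of the 10 ligands with at least 10 reads, 9 had a log2 fold change above 0, as had 9081 of all 18563 genes with as many reads. The exception among the ligands was WNT10B, with 46 parental and 22 CARM1 KO reads. WNT2, WNT2B, WNT7B and WNT10A were not called and had at most 52 reads in either library.

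WNT9A lies on chromosome 1 of GRCh37 from 228106357 to 228135633, and WNT3A lies next to it from 228194699 to 228248972. WNT3A had 1 parental and 0 CARM1 KO reads, too few for a comparison. WNT10B on chromosome 12, from 49359123 to 49365518, has WNT1 as its neighbour, and WNT1 was not detected at this depth.

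The Frizzled receptors changed in composition more than in sum. FZD3, a receptor known for axon guidance and planar polarity, had 3334 parental and 176 CARM1 KO reads. It fell 19.4-fold (95% interval 16.7 to 22.7). FZD8 had 897 and 164 reads and fell 5.60-fold (95% interval 4.74 to 6.66). At a coefficient of variation of 0.4, FZD3 was still called and FZD8 was not. FZD6, a receptor linked to planar polarity, had 1665 parental and 4880 CARM1 KO reads, a ratio of 2.86 (95% interval 2.71 to 3.03) that was just under the fold threshold.

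Per length, FZD6 made up 33.3% of the summed Frizzled level in parental cells and 76.9% in CARM1 KO cells. FZD3 accounted for 19.7% in parental and 0.818% in CARM1 KO cells, and FZD8 for 18.0% and 2.59%. The sum over the 10 Frizzled genes was 39.5 in parental and 49.0 in CARM1 KO cells. In parental cells FZD6, FZD3, FZD8, FZD7 and FZD2 thus each held a sizeable part of the Frizzled transcripts, and in CARM1 KO cells FZD6 alone held most of them. FZD7 had 669 and 425 reads, FZD2 had 441 and 327 reads, and FZD4 had 358 and 500 reads, none of which was called. FZD1, FZD5 and FZD9 had at most 272 reads in either library and were not called.

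**Figure D2:**
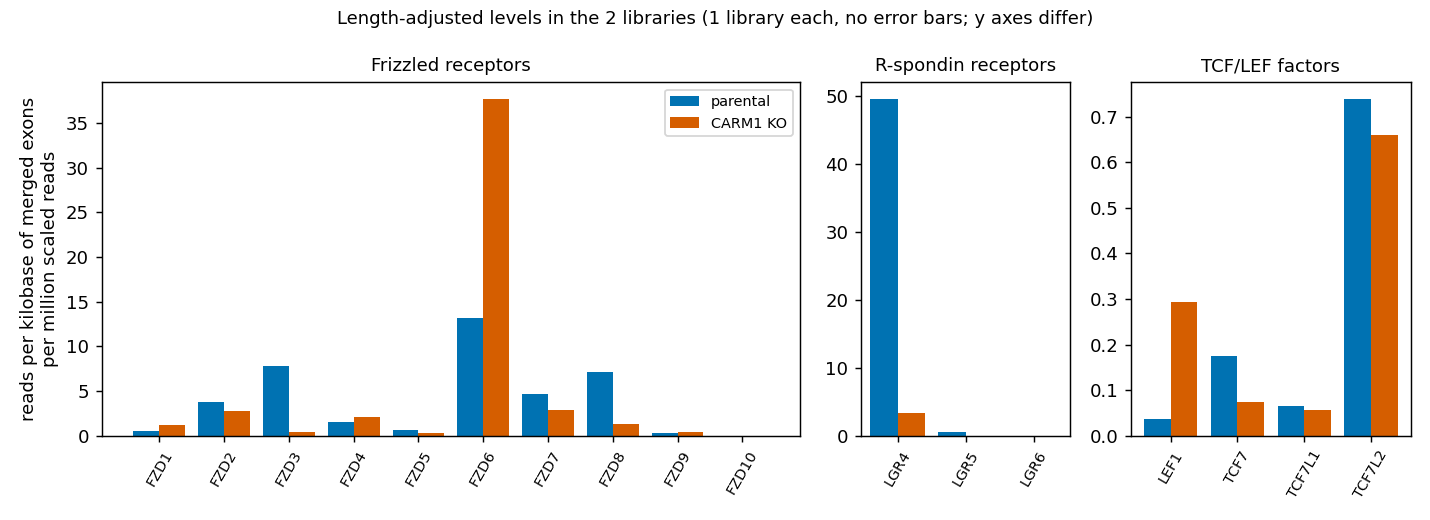
Length-adjusted levels (RPKM) of the Frizzled receptors, the R-spondin receptors and the TCF/LEF factors in the parental and CARM1 KO libraries, with bars from 0 and a separate axis for each panel. FZD6 reached 37.7 in CARM1 KO cells, LGR4 went from 49.5 to 3.39, and TCF7L2 was the highest TCF/LEF factor in both.

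Both LRP co-receptors were at a lower level in CARM1 KO cells without passing the fold threshold. LRP6, the main co-receptor by level, had 5012 parental and 2691 CARM1 KO reads, 1.91-fold lower (95% interval 1.82 to 1.999). LRP5 had 524 and 208 reads, 2.58-fold lower (95% interval 2.19 to 3.04). Their summed level was 18.2 in parental and 9.19 in CARM1 KO cells.

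The summed level of the R-spondin receptors was 50.1 in parental and 3.39 in CARM1 KO cells. LGR4, the most abundant of them, had 9802 parental and 686 CARM1 KO reads. It fell 14.6-fold (95% interval 13.5 to 15.8). LGR5, known as a marker of intestinal stem cells and as a β-catenin target, had 94 parental and 1 CARM1 KO reads. Its ratio was 96.2 in favour of parental cells (95% interval 16.9 to 3841). Per length, LGR4 made up 98.8% of the R-spondin receptor level in parental and 99.8% in CARM1 KO cells, so that LGR5 did not take its place. ZNRF3, which marks Frizzled receptors for removal, had 492 and 261 reads, 1.93-fold lower in the knockout (95% interval 1.66 to 2.25). RNF43, which acts in the same way, had 7 and 19 reads. Neither was called.

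All 7 secreted inhibitors with at least 1 read were called, 3 of them higher and 4 of them lower in CARM1 KO cells. Of all genes tested, 8.33% were higher and 7.44% were lower. With a coefficient of variation of 0.4, DKK2, SFRP1 and WIF1 kept the call, and DKK1, DKK3, SFRP4 and SFRP5 lost it. DKK1, which binds LRP5 and LRP6 and blocks the co-receptor, had 3183 parental and 12353 CARM1 KO reads. It rose 3.79-fold (95% interval 3.65 to 3.94). DKK3, a divergent member of the family, had 1527 and 4969 reads and rose 3.18-fold (95% interval 3.0005 to 3.37). SFRP5 had 1 parental and 12 CARM1 KO reads, a ratio of 11.7 with an interval from 1.73 to 501.0. Among the inhibitors that rose, only DKK1 and DKK3 were abundant.

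The inhibitors that fell were at or near 0 reads in CARM1 KO cells. DKK2 had 124 parental and 0 CARM1 KO reads, and was at least 42.3-fold lower, taking 3 reads as the limit that a count of 0 allows. SFRP1, a ligand-binding inhibitor, had 163 parental and 1 CARM1 KO reads, a ratio of 166.9 in favour of parental cells (95% interval 29.5 to 6632). WIF1, which binds WNT ligands through its own domain, had 181 parental and 6 CARM1 KO reads. It fell 30.9-fold (95% interval 13.9 to 85.3). SFRP4 had 11 reads and 1 read, and its interval, from 1.64-fold to 484.8-fold lower, extended below 3-fold. Thus, 3 of the 4 ligand-binding inhibitors that were detected fell, compared with 7.44% of all genes tested, while SFRP5 rose at a low count.

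Per length, DKK1 was the most abundant inhibitor in both libraries, with 83.6% of the summed inhibitor level in parental and 92.9% in CARM1 KO cells. The inhibitors other than DKK1 and DKK3 had a summed level of 4.90 in parental and 0.305 in CARM1 KO cells. WIF1 supplied 69.3% of the SFRP and WIF1 level in parental cells. The sum over all inhibitors, 55.02 in parental and 187.8 in CARM1 KO cells, followed DKK1.

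**Figure D3:**
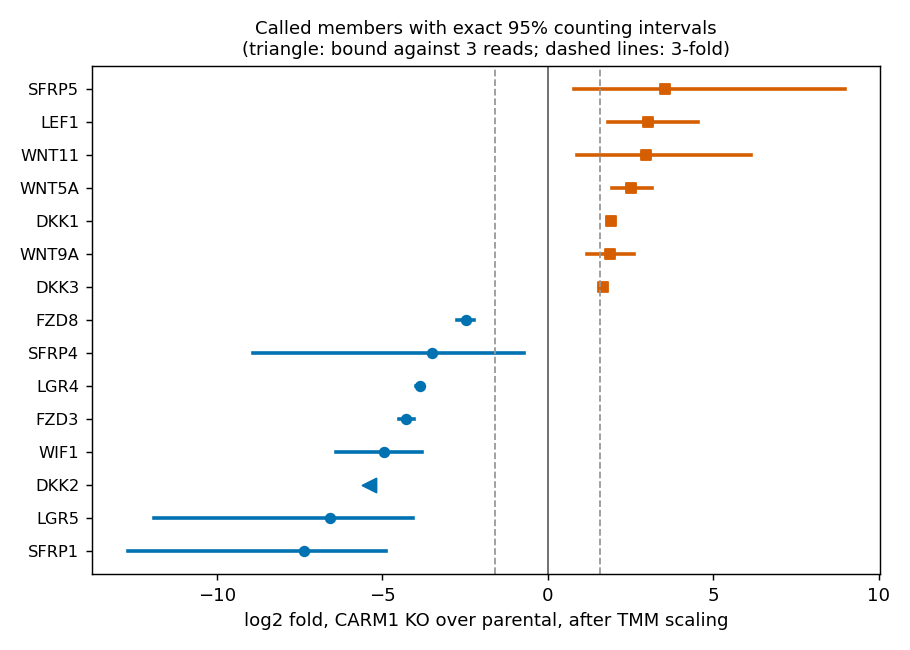
Log2 fold of the 15 called members, CARM1 KO over parental, after TMM scaling, with exact 95% counting intervals as lines, dashed lines at 3-fold and a triangle for the bound of DKK2. The intervals of WNT9A, WNT11, SFRP4 and SFRP5 cross the 3-fold lines, and those of LGR4, FZD3, FZD8 and DKK1 are narrow.

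Of the 8 intracellular effectors, LEF1 rose and the other genes were not called, where 8.33% of all genes tested rose and 7.44% fell. LEF1 was not called at a coefficient of variation of 0.4. CTNNB1, which encodes β-catenin, had 11901 parental and 15140 CARM1 KO reads, a ratio of 1.24 (95% interval 1.21 to 1.27). APC, a component of the destruction complex, had 3222 and 2692 reads, and AXIN1, the limiting component of that complex, had 1133 and 1037 reads. AXIN2, a feedback inhibitor that is itself a β-catenin target, had 128 and 51 reads, 2.57-fold lower in the knockout (95% interval 1.84 to 3.63) and not called. LEF1, a nuclear partner of β-catenin, had 6 parental and 50 CARM1 KO reads and rose 8.14-fold (95% interval 3.49 to 23.2).

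TCF7L2 remained the leading TCF/LEF factor per length, with 72.8% of their summed level in parental and 60.9% in CARM1 KO cells, and had 155 and 142 reads. LEF1 made up 3.54% in parental and 27.0% in CARM1 KO cells. TCF7 had 55 and 24 reads, and TCF7L1 had 9 and 8 reads, and neither was called. The summed level of the 4 factors was 1.01 in parental and 1.08 in CARM1 KO cells, which is low beside that of CTNNB1, at 32.5 and 40.4.

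Of 60 other pathway genes on a fixed list, 56 had at least 1 read, of which 6 rose and 8 fell in CARM1 KO cells. These are 10.7% and 14.3%, compared with 8.33% and 7.44% of all genes tested. Among those with at least 10 reads, 11.8% rose and 15.7% fell, against 11.8% and 10.4% of all such genes. WLS, the carrier that brings WNT ligands to the cell surface, had 381 parental and 2169 CARM1 KO reads and rose 5.56-fold (95% interval 4.98 to 6.22). PORCN, the enzyme that attaches the lipid to the ligands, had 62 and 85 reads and was not called. ROR1, a receptor for WNT5A, had 6 and 40 reads and rose 6.51-fold (95% interval 2.74 to 18.8). ROR2, with 173 and 121 reads, and RYK, with 4264 and 3625 reads, were not called. PRICKLE2, of the planar polarity pathway, had 26 and 294 reads and rose 11.04-fold (95% interval 7.39 to 17.2). PRICKLE1, with 147 and 82 reads, DAAM1, with 394 and 1036 reads, and the VANGL and CELSR genes were not called. RSPO4, with 2 and 23 reads, and DAAM2, with 7 and 28 reads, also rose, as did TLE1. The intervals of ROR1, RSPO4 and DAAM2 extended below 3-fold.

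Among the genes that fell, RSPO3, a ligand of the LGR receptors, had 82 parental and 2 CARM1 KO reads, a ratio of 42.0 in favour of parental cells (95% interval 11.3 to 352.4). KREMEN2, a receptor for DKK proteins, had 355 and 26 reads and fell 14.0-fold (95% interval 9.38 to 21.7). TLE4, a Groucho-type corepressor that binds TCF factors, had 4833 and 447 reads and fell 11.1-fold (95% interval 10.05 to 12.2). TLE1, of the same family, had 388 and 1199 reads, 3.02-fold higher in CARM1 KO cells (95% interval 2.69 to 3.39), just past the threshold. Its call was lost with scaling by library size only, with minimums of 10 and 50 reads and at a coefficient of variation of 0.4. SOSTDC1, a secreted inhibitor, had 50 and 0 reads, and DACT3 and AMER1 also fell. The Dishevelled genes DVL1, DVL2 and DVL3 and the kinase GSK3B were not called. The median log2 fold change of the other pathway genes was -0.23.

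Of 25 genes widely used as β-catenin/TCF targets, 23 had at least 1 read, of which 7 rose and 2 fell in CARM1 KO cells. These are 30.4% and 8.70%, compared with 8.33% and 7.44% of all genes tested, and the median log2 fold change was 1.01. With at least 10 reads the shares were 31.8% and 9.09%, against 11.8% and 10.4% of all such genes. The list shares 7 genes with the members (AXIN2, LGR5, RNF43, ZNRF3, LEF1, TCF7 and DKK1) and 3 with the other pathway genes (NKD1, NOTUM and APCDD1). Of the 15 targets in neither other list, CD44, an adhesion receptor, had 2407 parental and 10946 CARM1 KO reads and rose 4.44-fold (95% interval 4.25 to 4.64). BAMBI, a pseudoreceptor for TGF-β family ligands, had 50 and 403 reads and rose 7.87-fold (95% interval 5.86 to 10.8). FGF9, with 1 and 24 reads, SOX9, with 30 and 105, and TNFRSF19, with 7 and 30, also rose. The intervals of SOX9 and TNFRSF19 extended below 3-fold. SNAI2 fell from 727 to 207 reads. MYC had 2548 and 1839 reads and CCND1 had 13219 and 19587 reads, and neither was called. Of the 10 shared targets, LEF1 and DKK1 rose and LGR5 fell. The other 7 were not called, with log2 fold changes of -1.47 for NKD1, -1.33 for AXIN2, -1.16 for TCF7, -0.94 for ZNRF3, -0.25 for APCDD1, 0.75 for NOTUM and 1.19 for RNF43.

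**Figure D4:**
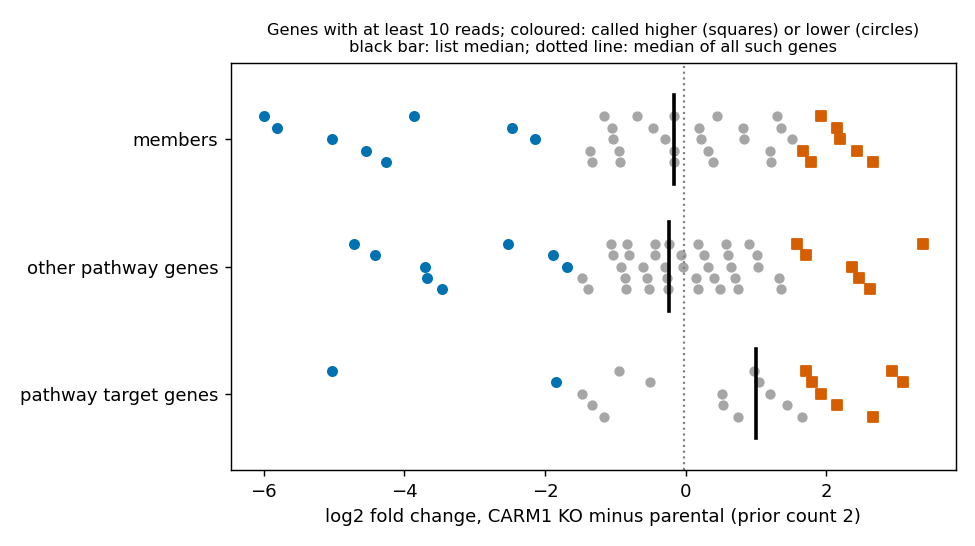
Log2 fold change (CARM1 KO minus parental, prior count of 2) of the members, the other pathway genes and the target genes with at least 10 reads, 1 point per gene, with called genes coloured. Black bars mark the list medians of -0.16, -0.23 and 1.01 beside a dotted line at the median of all such genes, -0.02.

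The TCF/LEF core motif, searched as CTTTGAA and CTTTGAT on both strands, was looked for in RefSeq promoters (GRCh38.p14, from 250 bases before to 50 bases after the start of the gene). Promoters were found for 35 of the 51 members. The motif was in 1 of these 35, or 2.86%, and in 6.86% of all promoters of that length. The match lies in the promoter of DKK1, the inhibitor with the most reads, and begins 95 bases before the start of the gene. The stretch shown, with the motif in capitals between flanking bases, is chr10:52314175-52314203 on the plus strand.
DKK1: ccctcccagcgCTTTGAAatcccatcccg
This is a match of letters and not a measured binding site.

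The genomic surroundings of the 15 called members were compared by the nearest protein-coding gene with at least 50 reads on either side. Among all such genes 11.1% rose and 7.44% fell. Of the 16 neighbours of the 8 members that fell, 2 fell, which is 12.5%, 2 rose and 12 were not called, with a median log2 fold change of -0.36. Of the 14 neighbours of the 7 members that rose, 2 rose, which is 14.3%, and 12 were not called, with a median of 0.14. The gaps to these neighbours ran from 0 kb, where genes overlap, to 4039 kb between DKK1 and ZWINT. The neighbours that fell with a member were EXTL3, 26.2 kb from FZD3, with 1846 and 464 reads, and TCIM, 1107 kb from SFRP1, with 2770 and 8 reads. Those that rose with a member were ERC2, 17.8 kb from WNT5A, with 90 and 438 reads, and MICAL2, 84.2 kb from DKK3, with 736 and 2273 reads. FZD3 lies on chromosome 8 of GRCh37 from 28351722 to 28431784, and its neighbour on the other side, FBXO16, had 438 and 197 reads and was not called. LGR4 lies on chromosome 11 from 27387508 to 27494337 on the minus strand. Its neighbours CCDC34 and LIN7C had log2 fold changes of -1.19 and -0.71.

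Some called members overlap other genes, and whether strand was used in the counting is not given in the sources used here. DKK3 overlaps USP47 on the opposite strand, which had 5948 and 5192 reads. SFRP4 overlaps EPDR1 on the opposite strand, which had 465 and 1907 reads, the reverse of the direction of SFRP4. LEF1 overlaps LEF1-AS1 on the opposite strand, which had 0 and 6 reads. DKK1 overlaps PRKG1-AS1, with 22 and 17 reads, and LGR5 overlaps TSPAN8, with 9 and 0 reads. The division of reads in these overlaps is uncertain.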

How the data were processed

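Per the paper's methods, the authors aligned 75 bp paired-end reads to hg19 with bowtie2 and used RSEM with Ensembl annotation to obtain an estimated count for each gene, deposited as whole numbers without normalization. The submitters' processing notes name RSEM 1.2.3, whereas the paper's methods name a later version. The Ensembl release is not given in the sources used here.

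Identifiers were matched to the GENCODE annotation lifted to GRCh37, the build of hg19, for 55501 of 57736 genes, and for all 51 members. The exact test of edgeR 4.0.16 (R 4.3.3) was applied after TMM scaling, with an assumed biological coefficient of variation of 0.12, a prior count of 0.125 and Benjamini-Hochberg adjustment over 26878 genes with at least 1 read. The thresholds, an FDR under 5% and a fold above 3, are those of the authors. The coefficient was taken from earlier work on these data, in which it was set with values of the paper in view. A quasi-likelihood fit needs replicates and was not run. The steps were tested on simulated data. Exact intervals were computed with scipy 1.17.1. Printed log2 fold changes have a prior count of 2. Medians are over genes with a total of at least 10 reads. Levels are reads per kilobase of merged GENCODE exons and per 1000000 TMM-scaled reads (RPKM). Merged exons can exceed the transcripts used, which would understate a level.

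Members with at least 10 reads were named by role, with up to 6 called genes of the other pathway list in each direction. The uncalled genes of that list, and neighbours and overlapping genes, were named after their values were seen. The members and lists were chosen with earlier results of these data known. The alternatives were a coefficient of 0.4, library size only, DESeq2 1.42.0 size factors, minimums of 10 and 50 reads, a rule on counting intervals, a prior count of 0.125 and bounds at 3 reads. PECAM1 among the markers was not matched.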

Additional observations from a re-analysis of the deposited data

How the results depend on the processing

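The assumed coefficient of variation moved the calls most. At 0.4 in place of 0.12, 0 members rose in place of 7, while FZD3, DKK2, SFRP1, LGR4, LGR5 and WIF1 stayed among the 6 that fell. There, 1 other pathway gene rose in place of 6 and 5 fell in place of 8, and 1 target gene rose in place of 7 and 1 fell in place of 2. This follows from the wider spread that the test assumes. When the whole counting interval had to lie beyond 3-fold, 4 members and 2 other pathway genes rose, and with at least 50 reads 2 other pathway genes rose. There RSPO4, ROR1 and DAAM2 had too few reads to be tested, and TLE1, at 3.02-fold, lost its call. The other counts stayed within 1.5 times. The median log2 fold change of the members lay between -0.38, with at least 50 reads, and -0.13, with DESeq2 size factors. That of the other pathway genes lay between -0.27 and -0.20, and that of the targets between 0.79 and 1.08. Of 239 comparisons of single members, 226 kept their call and direction, 13 lost the call and 0 changed direction. Of the losses, 9 were at a coefficient of 0.4 and 4 under the interval rule. However, 25 of the 40 members compared were not called in the main setting, and remaining uncalled counts as kept. The coefficient of 0.4 and the interval rule use the same folds, so direction could not change there. Of the 15 called members, 9 thus lost the call at a coefficient of 0.4.

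No library was left out, since each group has 1. No paired analysis was possible because each group holds 1 library. The median log2 fold change over all genes was -0.02 with TMM, -0.06 with library size only and 0.0036 with DESeq2 size factors. Depth limits WNT11, SFRP4, SFRP5 and the ligands under 10 reads. In the other lists it also limits ROR1, RSPO4, DAAM2, FGF9 and TNFRSF19.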
